A study of Mus musculus with 50 samples.

Results

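Erythroid progenitor cells were examined among mouse blood-forming cells sequenced singly after transplantation of a single haematopoietic stem cell. Cells were kept if 1000 genes or more were detected and no more than 10% of counts were mitochondrial. The erythroid progenitor cells were chosen by expression: they are the kept cells in which at least 3 of the 6 genes Klf1, Gata1, Epor, Car1, Ermap and Tspo2 stood at 30 CPM or more (counts of a gene scaled to one common total per cell) and Pf4 stood below 500 CPM. There were 137 such cells among 4185 kept cells of 4271 in all, a share of 3.27% (exact Clopper-Pearson 95% interval 2.76 to 3.86%, counting error only). The 6 genes and Pf4 chose the cells, so their levels are a description and support nothing.

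Each recipient was a lethally irradiated B6-Ly5.2 mouse given 1 stem cell from a B6-Ly5.2 donor with GFP driven by the β-actin promoter, together with whole marrow cells of B6-Ly5.2 mice as competitors, and all groups share this design. At 1, 4 and 12 months after transplantation there were 10, 26 and 14 samples, of which 5, 4 and 6 were marrow with spleen and the others marrow alone; animal ages are not given in the sources used here. Cells were enriched for c-Kit with beads and sorted singly by surface markers or by GFP, after staining for CD201 (the product of Procr), CD150, CD48, Sca-1 and c-Kit and with a lineage cocktail of B220, Gr-1 and TER-119, the last an antigen of erythroblasts and red cells. The sequenced fragments came mainly from transcript 3′ ends, since a variant of Smart-seq2 (STRT-seq) was used. The columns name a library and a cell number but no sample, so no cell was assigned to a month, a tissue, a recipient, the donor or the competitor marrow, or a gate. All cells were therefore treated as 1 pooled sample, without replicates and without tests, and the sort can set any share of cells given here.

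Red cells arise from stem cells through progenitors that lose stem cell and megakaryocyte potential, divide rapidly under erythropoietin and only then fill with haemoglobin. GATA1 with its cofactor FOG1 and KLF1 are the central transcription factors of this path, while GATA2, prominent in earlier cells, gives way to GATA1. Carbonic anhydrase 1 and the erythropoietin receptor mark committed progenitors, and globin, band 3 (Slc4a1) and the erythroid haem synthase Alas2 are known for their high expression in erythroblasts.

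Upstream sequences of 3 of the genes that chose the cells are shown with that of Kel, the blood group peptidase gene, whose level was higher in the cells in 16 of 16 libraries compared, because GATA1 is known to bind GATA motifs and KLF1 CACCC motifs. Each is 150 bases on the gene's strand, 5′ to 3′, from RefSeq on GRCm38.p6, ends before the most upstream annotated start, and has matches to the motif AGATAA, the motif TGATAA, the motif AGATAG, the motif TGATAG or the motif CACCC on either strand in capitals. They lie at chr8:84901778-84901927 on the plus strand (Klf1), chr9:21963577-21963726 on the minus strand (Epor), chr4:119190012-119190161 on the minus strand (Ermap) and chr6:41704340-41704489 on the minus strand (Kel).
Klf1: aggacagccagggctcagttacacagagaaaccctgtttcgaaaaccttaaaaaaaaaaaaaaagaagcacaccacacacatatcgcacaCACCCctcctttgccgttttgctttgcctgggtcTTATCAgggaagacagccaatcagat
Epor: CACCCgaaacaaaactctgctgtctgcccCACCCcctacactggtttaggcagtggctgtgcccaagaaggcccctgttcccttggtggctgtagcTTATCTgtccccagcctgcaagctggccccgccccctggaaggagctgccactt
Ermap: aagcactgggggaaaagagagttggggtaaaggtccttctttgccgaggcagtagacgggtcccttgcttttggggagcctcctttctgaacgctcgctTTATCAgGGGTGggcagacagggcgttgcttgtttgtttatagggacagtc
Kel: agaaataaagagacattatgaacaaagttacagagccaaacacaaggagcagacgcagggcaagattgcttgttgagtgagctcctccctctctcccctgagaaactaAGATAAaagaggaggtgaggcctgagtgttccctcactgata
Each of these windows holds 1 GATA match, and the first 3 also hold CACCC. The 3 rule genes printed are those with a GATA match, so a match in each of their windows is given by the choice. Kel was picked from the 15 highest genes, all of which have 1 direction in 16 libraries. No GATA match was found in the 250 bases of Gata1 and Tspo2, nor in those of Mfsd2b among the 15 highest. In the 250 bases before the RefSeq start, a GATA match was found for 3 of the 5 rule genes with an entry and for 3 of the 14 matched genes among the 15 highest named below, against 26.5% of all 32851 such windows. CACCC was found for 5 of 5 and 9 of 14, against 52.0%. Genes were counted by a match in any of their windows, whereas the 26.5% and 52.0% are shares of windows. Blvrb and Lmna had more than 1 window, and the GATA match of Blvrb was in only 1 of them. The matches are descriptions of these letters and not of bound sites. In the GENCODE annotation of GRCm38 the rule genes span chr8:84901928-84905291 (Klf1), chrX:7959260-7978071 (Gata1), chr9:21958897-21963506 (Epor), chr3:14766216-14808368 (Car1), chr4:119175457-119190011 (Ermap) and chr17:48447907-48451522 (Tspo2).

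The rule genes were far above the comparison set in the summed counts of the cells. The comparison set comprised 2562 kept cells with Procr, the gene of the stem cell surface protein EPCR, at 50 CPM or more and a count of the stem cell transcription factor genes Mecom or Hlf. A further 33 cells met both rules and were counted among the erythroid progenitor cells only. Klf1 stood at 363 CPM (Poisson interval 356 to 371) against 2.27 CPM, Gata1 at 171 against 4.74 CPM, and the receptor gene Epor at 97.3 against 6.04 CPM. Car1 stood at 2181 against 4.91 CPM. The erythroblast membrane gene Ermap stood at 225 against 1.14 CPM, and the erythroid cholesterol-binding protein gene Tspo2 at 185 against 1.51 CPM. These levels set the cells apart because the rule asked for them.

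Single cells varied widely in each rule gene. Klf1 reached 30 CPM in 124 of the 137 cells, with a median of 151 and a maximum of 1240 CPM, and Car1 in 121, with a median of 1138 and a maximum of 9807 CPM. Ermap passed in 87 cells, Gata1 in 84, Epor in 79 and Tspo2 in 76. Klf1 and Car1 thus passed in most of the cells and each of the other 4 in 55.5 to 63.5% of them. Without Car1, 95 cells in 29 libraries still passed at least 3 of the other 5 genes.

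Just inside the rule stood 53 cells with 3 markers and just outside it 132 cells with 2. Klf1 stood at 128 CPM in the former and 30.6 in the latter, Car1 at 382 and 88.3 CPM, and Gata1 at 117 and 101 CPM. Procr stood at 26.5 and 64.6 CPM. The Pf4 limit left out 12 more cells, in which Klf1 stood at 264 CPM and Pf4, a platelet chemokine gene, at 2529 CPM.

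Detection of Car1 was not limited to these cells. A count of Car1 was present in 95.6% of erythroid progenitor cells and 16.4% of comparison cells, but also in 61.2% of 67 T-lineage and 41.8% of 158 B-lineage cells. After thinning every cell to 20000 counts, with 26 shallower erythroid progenitor cells, 144 comparison cells, 21 T-lineage and 34 B-lineage cells left out, the shares were 85.6%, 6.12%, 43.5% and 34.7%. For Klf1 the thinned shares were 84.7%, 2.11%, 10.9% and 4.84%. The first share of each gene is set by the rule. A single Car1 count therefore does not mark a cell as erythroid here.

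Depth differed between the groups, with a median of 87778 counts in erythroid progenitor cells and 128192 in comparison cells. Up to 33333 counts a single count reaches 30 CPM, and 45 of the 137 cells were that shallow. They made up 7.15% of the 629 kept cells under that depth, against 2.19% of 1144 cells from there to 100000 counts and 2.78% of 2412 deeper cells. When 3 counts as well as 30 CPM were asked of each of 3 markers, 97 cells in 28 libraries remained, and the 40 others had a median of 16585 counts. With the 97 cells, the median log2 ratio was 1.68 over the haem genes described below, 1.62 over DNA replication, 2.23 over mitosis and -1.77 over the stem cell list. These values were close to those of all 137 cells, in which deep cells carry most of the summed counts.

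The cells were spread unevenly over libraries. Of 67 libraries, which held 22 to 92 cells and 1665151 to 26184494 counts each, 30 held at least 1 erythroid progenitor cell and the median share was 0. Lib19 held 25 (43.1% of its 58 kept cells), Lib22 16, Lib17 14 and Lib23 10, together 65 or 47.4%. In 6 of these 30 libraries (Lib19, Lib22, Lib17, Lib3, Lib2 and Lib111) Car1 was counted in at least 80% of the comparison cells as well. Those libraries held 67 of the erythroid progenitor cells and 86 of the comparison cells. The cells carried 95 different cell numbers, of which 93 occurred in at least 2 libraries.

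In Lib19 shallow cells carried Car1 and neutrophil genes whether or not they met the rule. Among cells under 33333 counts, the 12 erythroid progenitor cells had a median of 2257 CPM of Car1 and 46088 CPM summed over 6 neutrophil granule genes (S100a8, S100a9, Ltf, Ngp, Camp and Lcn2). The 18 other shallow cells of this library had 1499 and 22534 CPM. Klf1, one of the genes that chose the former, had a median of 163 CPM in them and 0 in the latter. In deeper cells Car1 was at 2497 CPM in 13 erythroid progenitor cells and 129 CPM in 15 others, while the granule genes were at 2448 and 2454 CPM. The ratio of the granule sum to the sum of the 4 adult globin genes had a median of 26.1 in the erythroid progenitor cells of Lib19 and 25.7 in its other cells, and of 23.1 and 25.5 in Lib17. The contribution of RNA shared within a library was not tested.

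**Figure D1:**
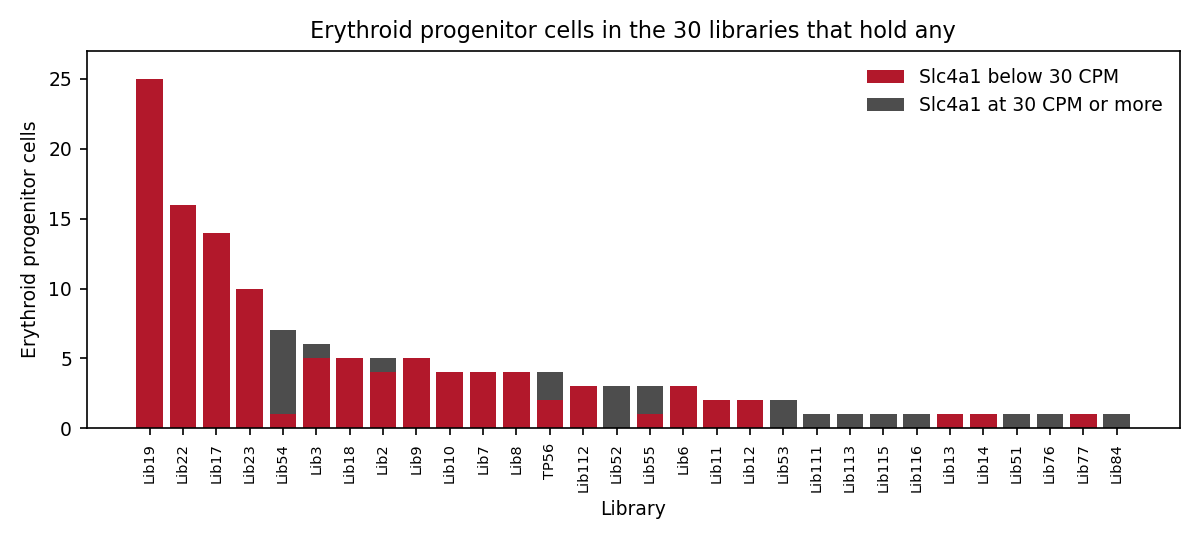
Number of erythroid progenitor cells (y axis) in each of the 30 libraries that held any (x axis). Bars are divided into cells with Slc4a1 below 30 CPM and cells with 30 CPM or more; Lib19 leads with 25 cells, and the cells with Slc4a1 are spread over 14 libraries.

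The erythroid progenitor cells differed widely in Slc4a1, the gene of the red cell anion exchanger band 3, and were divided by it. This division was chosen after the values were seen, so the level of Slc4a1 and of genes that vary with it is fixed by the division. Slc4a1 stood at 30 CPM or more in 24 cells and was at 0 in 110. The 24 cells with Slc4a1 came from 14 libraries and had a median of 201911 counts and 7265.5 detected genes, against 71342 counts and 4435 genes in the 113 cells without it. Globin made up a median of 60780 CPM in the former and 121 CPM in the latter.

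Car1 went the other way. It had a median of 73.9 CPM in the 24 cells with Slc4a1 and 1875 CPM in the 113 without, and stood at 609 and 2696 CPM in their summed counts. Gata1 stood at 90.3 and 198 CPM and Gfi1b, a repressor that acts with GATA1, at 83.6 and 164 CPM. Klf1, at 254 and 399 CPM, Tspo2, at 207 and 178 CPM, and Epor, at 116 and 91.1 CPM, differed by less. The 24 cells had more of the genes of a filling erythroblast: Tfrc (transferrin receptor) at 945 against 127 CPM and Fech (the last enzyme of haem synthesis) at 631 against 83.4 CPM. Alas2 was close to absent from the larger set, at 284 against 0.723 CPM, and Slc25a37, the mitochondrial iron importer mitoferrin, stood at 1036 against 20.7 CPM. Library was not held constant in this division. Slc4a1 was at 0 CPM in the 25, 16 and 14 erythroid progenitor cells of Lib19, Lib22 and Lib17. Car1 was counted in 100, 83.3 and 84.2% of the comparison cells of these libraries. The part of library in the differences of Car1 and the other genes was not tested.

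Genes of other cells moved with this division. The 6 neutrophil granule genes summed to a median of 16345 CPM in the 24 cells and 285 CPM in the 113, with 1000 CPM or more in 19 and 47 cells. Of the 24 cells 14 also met the Procr rule of the comparison set, against 19 of the 113, and Procr stood at 112 and 20.1 CPM. The muscle genes Acta1, Myh4, Tnnt3 and Pvalb, picked after their values were seen, summed to 37558 and 35981 CPM in 2 of the 24 cells, from Lib76 and Lib116. The macrophage genes Vcam1, C1qa, C1qb and C1qc summed to 11955 to 23617 CPM in the 4 erythroid progenitor cells of library TP56, of which 2 belonged to the 24 and 2 to the 113. They reached 1000 CPM in 4 of the 24 and 2 of the 113. For part of the 24 cells the erythroid label therefore stands beside markers of stem, neutrophil, macrophage or muscle cells, and they are called cells with Slc4a1 below. The part of these genes in the erythroid differences was not tested.

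Comparison cells also carried globin. Of these 2562 cells 445 had at least 1445 CPM of globin, the lower bound of the 45 erythroid progenitor cells richest in it, with Slc4a1 at 36.3 and Alas2 at 25.4 CPM, but Klf1 at 2.60 and Car1 at 4.33 CPM. In the other 2117 comparison cells Slc4a1 stood at 0.989 CPM and Alas2 at 0.134 CPM. S100a8, a neutrophil granule gene, stood at 2322 CPM in the 445 cells and 86.7 CPM in the 2117. The globin level chose the 445 cells, and cells that passed the erythroid rule had been left out of the comparison set. Their globin, and largely their low Klf1 and Car1, are therefore given by the choice. Within that choice Slc4a1, Alas2 and S100a8 were higher in the 445 cells than in the 2117.

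**Figure D2:**
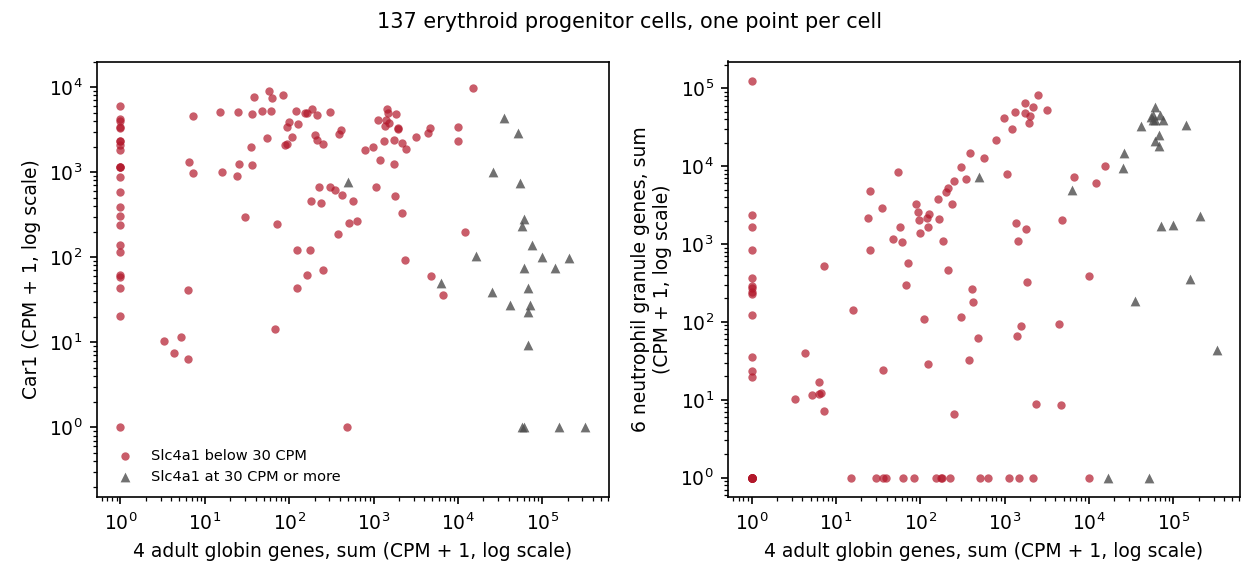
Each of the 137 erythroid progenitor cells is a point, with the summed CPM of Hba-a1, Hba-a2, Hbb-bs and Hbb-bt on the x axis and Car1 (left) or 6 neutrophil granule genes summed (right) on the y axis, all log scales of CPM + 1. Triangles are the 24 cells with Slc4a1 at 30 CPM or more, which had a median of 60780 CPM of globin and 73.9 CPM of Car1, against 121 and 1875 CPM in the other 113 cells.

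**Figure D3:**
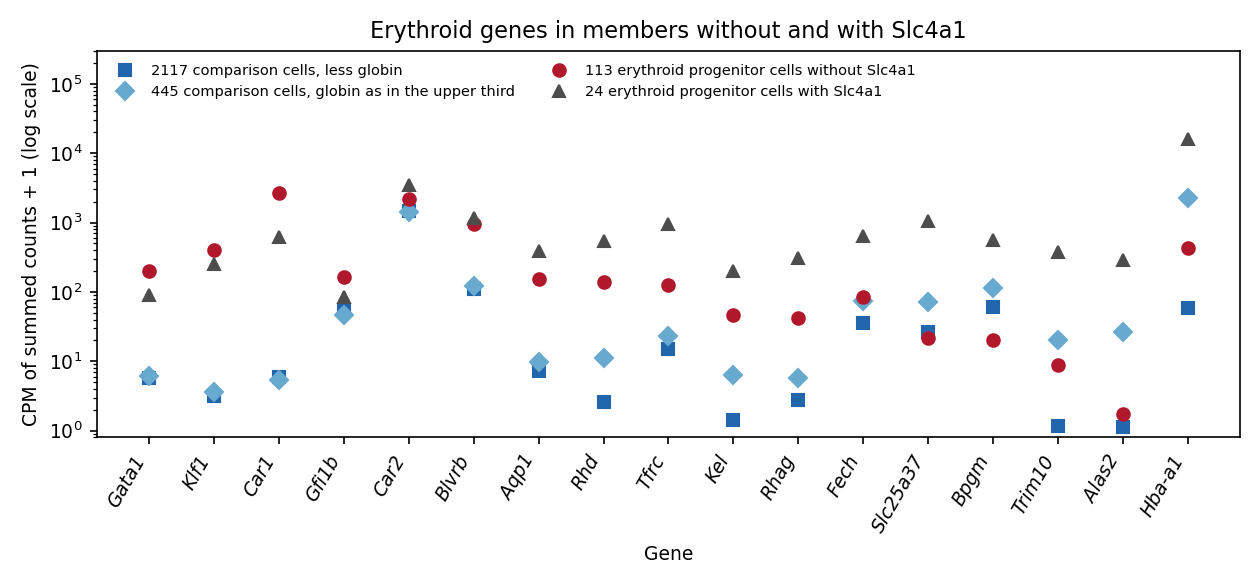
CPM + 1 of summed counts (log y axis) of 17 erythroid genes (x axis) in comparison cells with less or more globin and in erythroid progenitor cells without or with Slc4a1. The rule genes Gata1, Klf1 and Car1 were high in both sets of erythroid progenitor cells and below 10 CPM in both comparison sets. This contrast is largely given by the choice of cells. Alas2 stood at 284 CPM in the cells with Slc4a1 and at 25.4 CPM or less in the other 3 sets.

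Some stem and progenitor genes were lower in cells with more of the 6 markers, and others only in cells with all 6. There were 53, 35, 22 and 27 cells with 3, 4, 5 and 6 markers, with median depths of 53853, 50874, 239847 and 287879 counts, so a higher number of markers went with greater depth. Gata2 stood at 211, 313, 113 and 61.8 CPM in these 4 sets and Spi1, the myeloid factor PU.1, at 171, 119, 90.6 and 42.4 CPM. Cd34, a surface gene of early progenitors, stood at 120, 105, 92.1 and 18.8 CPM. Itga2b, the integrin of megakaryocytes and early progenitors, stood at 160, 105, 14.5 and 15.2 CPM. By contrast, Procr stood at 26.5, 45.1, 87.6 and 20.2 CPM and Mecom at 33.3, 54.8, 79.2 and 9.64 CPM, both highest with 5 markers. Hlf stood at 34.0, 65.6, 55.1 and 14.9 CPM. Kit, at 104, 103, 103 and 63.9 CPM, was lower with 6 markers only.

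Several erythroid genes outside the rule were higher in the sets with 5 and 6 markers, but not all. Rhd (the Rh blood group protein) stood at 60.7, 44.9, 347 and 407 CPM, and Gfi1b at 54.5, 69.2, 185 and 224 CPM. Sphk1, the kinase that makes sphingosine-1-phosphate, stood at 11.4, 13.5, 97.3 and 211 CPM. Other erythroid genes did not follow this order. Slc4a1 stood at 269, 343, 571 and 154 CPM, and Zfpm1 at 83.1, 102, 148 and 76.6 CPM. Mfsd2b stood at 69.5, 184, 148 and 91.3 CPM, and the water channel gene Aqp1 at 87.4, 328, 241 and 219 CPM. The median globin sum showed no order, at 249, 98.9, 359 and 153 CPM. The share of cells that met the Procr rule was 24.5, 25.7, 27.3 and 18.5%.

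**Figure D4:**
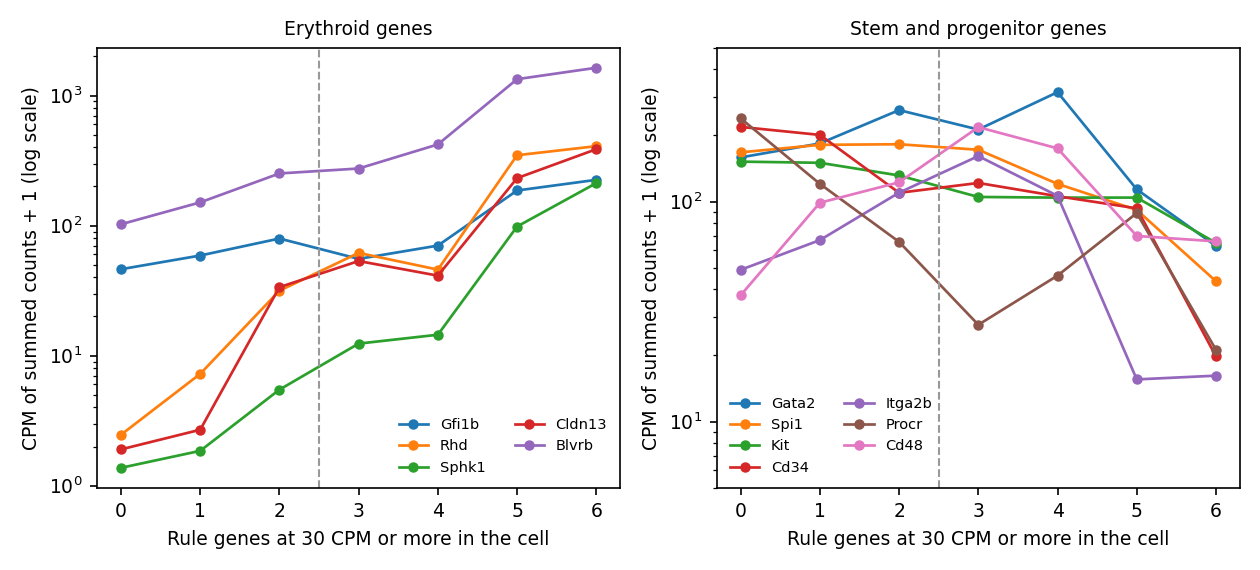
CPM + 1 of summed counts (log y axis) of 5 erythroid genes (left) and 7 stem and progenitor genes (right) in kept cells with Pf4 below 500 CPM, by the number of rule genes at 30 CPM or more (x axis). Erythroid progenitor cells lie right of the dashed line; Rhd stood at 60.7 CPM with 3 markers and 407 CPM with 6, and Cd34 at 120 and 18.8 CPM.

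Gata2, which precedes Gata1 on the erythroid path, was counted in cells with and without Gata1. It reached 30 CPM in 53 of the 84 cells in which the rule gene Gata1 did and in 33 of the 53 others, which are like shares. Gata1 and Spi1 both reached 30 CPM in 43 cells, and Epor and Kit, the stem cell factor receptor gene, in 52. Since Gata1 and Epor belong to the rule, these are descriptions.

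Against the comparison set, 921 of 7949 genes at 16 CPM or more in either group were at least 2-fold higher in erythroid progenitor cells (11.6%) and 987 at least 2-fold lower (12.4%), on the scale of log2(CPM + 1) of summed counts. The median over all 7949 genes was -0.01. With the 113 cells without Slc4a1 in place of all 137, 694 of the same genes were higher (8.73%) and 1442 lower (18.1%), with a median of -0.13. The comparison set stayed whole there, with its 445 globin-rich cells, so the filter acted on 1 side only. Direction was also counted over the 16 libraries with at least 3 cells of both sets. These counts carry no test, and the lists below are read against the 11.6% and 12.4%, or against the 8.73% and 18.1% where the cells with Slc4a1 are left out.

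The transcription factor genes of the erythroid path differed little as a list. Of 24 tested, 6 were at least 2-fold higher and 1 lower, with a median of 0.53. Without the cells with Slc4a1 3 were higher and 4 lower (0.20). Over all cells the list median was above 0 in 6 and below 0 in 10 of 16 libraries, with a median over libraries of -0.14. Zfpm1, which encodes FOG1, stood at 100 against 29.7 CPM (log2 ratio 1.72), and Gfi1b at 144 against 52.7 CPM (1.43), higher in 14 of 16 libraries. The higher values of E2f2, a cell cycle factor of erythroblasts (3.42), and of Trim10, needed for terminal erythroid differentiation (4.46), were 0.39 and 0.97 in the cells without Slc4a1. Gata2 was close to equal, at 158 against 172 CPM. Spi1 stood at 99.9 against 146 CPM, and Lyl1, a stem cell factor gene, at 176 against 423 CPM (-1.26), lower in all 16 libraries.

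Cytokine receptor and signalling genes other than Epor differed little in the pooled counts of all cells, but were lower in most libraries. Of 19 tested, 1 was 2-fold higher and 4 lower (median -0.08), and in the cells without Slc4a1 0 were higher and 8 lower (-0.91). Over all cells the list median was above 0 in 3 and below 0 in 13 of 16 libraries, with a median over libraries of -0.77. Against cycling comparison cells 3 were higher and 2 lower (0.29), and without the 6 libraries with Car1 in most comparison cells the median was 0.11. The feedback inhibitor genes Socs2 (-2.06), Cish (-1.36) and Socs3 (-1.24) were lower. Against cycling comparison cells Cish and Socs3 were at 0.29 and 0.22. Kit stood at 90.6 against 156 CPM, with 10 of 16 libraries lower. Bcl2l1, the survival gene BCL-XL, stood at 83.2 against 31.3 CPM over all cells but at 24.0 CPM without the 24 cells with Slc4a1.

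Haem synthesis genes were higher along much of the pathway. Of 15 tested, 9 were at least 2-fold higher and 0 lower (median 1.66), and the list median was above 0 in 14 of 16 libraries. Cpox, coproporphyrinogen oxidase, stood at 146 against 10.8 CPM (3.65), and Alad, an early enzyme of the pathway, had a log2 ratio of 2.07. Without the cells with Slc4a1 the list had 7 higher and 1 lower (0.99). Cpox was then at 2.66, Alad at 1.99 and Tmem14c, a mitochondrial porphyrin carrier, at 1.65, while the 1 lower gene was Alas2 at -1.72. Alas2 stood at 0.723 CPM in those cells, against 0.134 CPM in the 2117 comparison cells with less globin. Those 2117 cells were chosen for low globin, and the erythroid progenitor cells were not. The ubiquitous synthase Alas1 stood at 41.4 against 38.1 CPM.

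Iron uptake genes were also higher in the pooled counts, but less evenly over libraries than the haem genes. Of 19 tested, 9 were 2-fold higher and 0 lower (median 0.81), and 6 and 1 without the cells with Slc4a1 (0.30). Over all cells the list median was above 0 in 10 and below 0 in 6 of 16 libraries, with a median over libraries of 0.40. Tfrc stood at 329 against 15.6 CPM (4.31). Steap3, the ferrireductase of the transferrin cycle, stood at 46.4 against 4.57 CPM (3.09), and the iron importer Slc11a2 at 41.0 against 9.07 CPM (2.06). Without the cells with Slc4a1 these 3 genes were at 2.95, 3.31 and 2.14. The ferritin gene Fth1 did not differ by size, at 3432 against 3431 CPM. Glrx5, which serves iron-sulphur cluster assembly, stood at 349 against 72.1 CPM (2.26).

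Membrane skeleton genes were of 2 kinds. Of 13 tested, 7 were higher and 1 lower (median 1.49), and 5 and 2 without the cells with Slc4a1 (0.63). The list median was above 0 in 8 and below 0 in 3 of 16 libraries, with a median over libraries of 0.03. Add2, β-adducin, stood at 66.5 against 0.886 CPM and at 65.7 CPM without the cells with Slc4a1. The β-spectrin gene Sptb stood at 71.3 against 1.14 CPM, but at 11.7 CPM without the cells with Slc4a1. Ank1 (ankyrin), Epb42 and Dmtn behaved likewise, with 46.2, 54.7 and 55.2 CPM overall and 8.06, 4.00 and 8.01 CPM without those cells. The nonerythroid spectrin gene Sptbn1 was lower, with a log2 ratio of -1.17.

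Several surface and transport genes of red cells had high ratios. Of 21 tested, 13 were higher and 2 lower (median 1.47), and 9 and 3 without the cells with Slc4a1 (0.61). The list median was above 0 in 15 of 16 libraries. Sphk1 stood at 97.7 against 0.492 CPM, and Mfsd2b, which exports sphingosine-1-phosphate from red cells, at 117 against 2.20 CPM. Over the 17 libraries with at least 3 erythroid progenitor cells Mfsd2b ranged from 7.39 to 241 CPM with a median of 70.9, and over 63 libraries of comparison cells from 0 to 30.6 CPM with a median of 0.921, so that the ranges overlapped. Both genes were as high without the cells with Slc4a1, at 120 CPM for Sphk1 and 139 CPM for Mfsd2b.

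Blood group and channel genes were also high without Slc4a1. Rhd stood at 240 against 3.11 CPM overall and at 140 CPM without those cells, and its partner Rhag at 106 against 2.31 CPM and 40.7 CPM. Kel, whose upstream sequence is printed above, stood at 83.4 against 1.32 CPM and 45.5 CPM, and was higher in 16 of 16 libraries. The water channel gene Aqp1 stood at 213 against 6.76 CPM and 155 CPM. The sodium pump subunit gene Atp1b2 stood at 60.2 against 0.376 CPM and 76.5 CPM. Cd36, a fatty acid receptor gene, was at 37.4 CPM overall but 2.34 CPM without the cells with Slc4a1, against 3.46 CPM. Slc2a1, the glucose transporter gene, was lower (9.17 against 36.4 CPM).

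Among enzymes and redox genes 9 of 19 were higher and 1 lower (median 0.78), and 4 and 2 without the cells with Slc4a1 (0.59). Blvrb, biliverdin reductase B, stood at 1001 against 110 CPM (3.17) and was higher in 16 of 16 libraries. Over libraries Blvrb ranged from 189 to 1742 CPM in erythroid progenitor cells and from 9.79 to 247 CPM in comparison cells. Mgst3, a glutathione transferase gene, was at 2.14 and Gclm, of glutathione synthesis, at 1.17. Car2, the carbonic anhydrase shared with stem cells, stood at 2481 against 1440 CPM (0.78). Bpgm, the red cell diphosphoglycerate enzyme, stood at 154 against 70.3 CPM but at 19.3 CPM without the cells with Slc4a1. Hmox1, haem oxygenase, was at 1.88 over all cells and at -1.13 without library TP56.

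Late maturation genes were higher mainly through the cells with Slc4a1. Of 18 tested, 9 were higher and 1 lower (median 0.93), but 3 and 4 without them (-0.38). The export receptor gene Xpo7 stood at 100 against 29.9 CPM and at 9.84 CPM without them. Optn, a mitophagy receptor gene, stood at 65.3 against 11.1 CPM and at 76.4 CPM without them, and was higher in all 16 libraries. Kmt5a, a histone H4 methyltransferase gene, stood at 82.3 against 22.5 and 72.0 CPM. The 4 adult globin genes had log2 ratios of 2.70 to 3.23 over all cells and of -1.48 to -0.10 without those with Slc4a1. Only erythroid progenitor cells were left out there, and the 445 comparison cells rich in globin stayed in. Hba-a1 stood at 425 CPM in the 113 cells without Slc4a1, against 57.9 CPM in the 2117 comparison cells with less globin. Hbb-bs stood at 286 against 87.3 CPM. The 2117 cells were chosen for globin below 1445 CPM and the 113 were not. That choice favours higher globin in the 113, so neither reference was matched for globin.

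Cell cycle genes were mostly higher than in the comparison set. Of 28 DNA replication genes 22 were 2-fold higher and 0 lower (median 1.59), and of 23 mitosis genes 22 and 0 (2.20). The list medians were above 0 in 13 and 14 of 16 libraries. Rrm2, the ribonucleotide reductase subunit gene, stood at 300 against 24.5 CPM, and the cyclin gene Ccna2 at 138 against 15.8 CPM. Mki67 and Top2a both reached 30 CPM in 66 of the 137 cells (48.2%) and in 5.54% of comparison cells. After thinning, Mki67 was counted in 62.2% and 11.5%.

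The 142 comparison cells with Mki67 and Top2a at 30 CPM or more served as a second reference, and were chosen for part of the cycle genes. Against them the replication median was -0.08 and the mitosis median -0.92, whereas haem synthesis stayed at 1.36, surface genes at 1.76, iron genes at 1.15 and the stem cell list at -1.30. Ccne1, cyclin E1, stood at 100 CPM in erythroid progenitor cells, 18.0 in cycling comparison cells and 3.74 in all comparison cells, and was higher in 16 of 16 libraries. It was at 100 CPM without the cells with Slc4a1 too.

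Growth genes were moderately higher. The list of MYC targets and ribosome biogenesis had 7 of 29 genes higher and 0 lower (median 0.62), and 12 and 0 without the cells with Slc4a1 (0.87). Srm, spermidine synthase, stood at 269 against 98.7 CPM (1.44), and the chaperonin gene Hspe1 at 1118 against 491 CPM (1.19). Myc itself stood at 272 against 325 CPM. Of 33 oxidative phosphorylation genes 1 was 2-fold higher and 0 lower (median 0.39), and that gene was Cycs (cytochrome c) at 302 against 112 CPM. The median against cycling cells was 0.06.

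The stress response list, whose kinase HRI (Eif2ak1) matches globin synthesis to haem, was mixed. Of 17 tested, 4 were higher and 1 lower (median 0.29), and 3 and 4 without the cells with Slc4a1 (0.29). Asns, asparagine synthetase, stood at 144 against 24.7 CPM (2.49) and Gadd45a at 52.9 against 8.85 CPM (2.45). Eif2ak1 stood at 69.5 against 28.1 CPM (1.28) and was higher in 13 of 16 libraries. Trib3, another target of the pathway, was lower at 8.12 against 34.0 CPM, and at 0.07 on the log2 scale against cycling cells.

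Interferon and MHC class I genes were lower. Of 19 tested, 0 were 2-fold higher and 6 lower (median -0.76), and the list median was below 0 in 16 of 16 libraries. Ifitm1, an interferon-induced membrane gene high in stem cells, stood at 535 against 2860 CPM (-2.42), and Ifitm3 at 859 against 2319 CPM (-1.43). The class I genes H2-K1, H2-D1 and B2m were each short of 2-fold, at -0.90, -0.78 and -0.78, with 15, 14 and 14 of 16 libraries lower. B2m stood at 5850 against 10073 CPM.

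Stem cell genes outside the comparison rule were lower nearly throughout. Of 23 tested, 19 were lower and 1 higher (median -1.72), and the list median was below 0 in 16 of 16 libraries. Esam, an endothelial and stem cell adhesion gene, stood at 20.0 against 197 CPM (-3.23), the transcription factor gene Meis1 at 74.3 against 307 CPM (-2.03), and Cd27 at 72.2 against 370 CPM (-2.34). The 1 higher gene was Cd48, a surface gene absent from stem cells in the usual sort and one of the sorted antigens, at 123 against 15.6 CPM (2.91). The comparison set was chosen for stem cell genes, so this direction is largely given by the choice. In the 33 erythroid progenitor cells that met the Procr rule Esam stood at 50.5 CPM and in the 104 that did not at 11.3 CPM.

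Of 13 megakaryocyte genes tested, 5 were lower and 1 higher (median -0.92). Selp, P-selectin, was at -1.97. The higher gene, Gp1bb, was at 1.26 over all cells but at -2.79 in cells with 5 or 6 markers. Pf4 was limited by the rule and stood at 46.7 against 207 CPM.

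Lists of other lineages were raised in part of the cells. Of 17 neutrophil and monocyte genes 14 were 2-fold higher and 1 lower (median 2.34), with 7 of 16 libraries above 0. Without the cells with Slc4a1 3 were higher and 9 lower (-1.06), against a comparison set that kept its globin-rich cells. S100a8 stood at 497 CPM in the cells without Slc4a1, against 86.7 CPM in the 2117 comparison cells with less globin. Only the latter were chosen for low globin, so this filter too acted on 1 side. The summed level of the list was 0 to 127736 CPM in single erythroid progenitor cells and 0 to 252842 CPM in comparison cells, with medians of 1998 and 2005 CPM, and 0 of the 17 genes were at 0 in the erythroid progenitor cells. Prtn3, proteinase 3 of primary granules, went against the list, at 165 against 775 CPM, and was lower in 16 of 16 libraries.

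Of 9 lymphoid genes tested 8 were higher (median 3.55, and 2.01 without the cells with Slc4a1, 1.07 with comparison cells weighted by library), with 9 of 16 libraries above 0. Cd3d, a T-cell receptor chain gene, stood at 48.9 against 2.26 CPM and Cd79a, of the B-cell receptor, at 39.0 against 2.77 CPM. Single cells held 0 to 7417 CPM of the 13 lymphoid genes in the matrix, with a median of 578 against 103 CPM. Of 10 macrophage genes 9 were higher (median 2.89), and 3 were higher and 1 lower without the cells with Slc4a1 (0.29). The macrophage list median was above 0 in 2 of 16 libraries and at -0.40 without the 4 cells of library TP56. Of 5 dendritic cell genes 0 were 2-fold higher or lower (median -0.21), and in the basophil and mast cell, eosinophil and stromal lists only 2, 1 and 1 genes were above 16 CPM. The part of these lineages in the differences above was not tested.

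**Figure D5:**
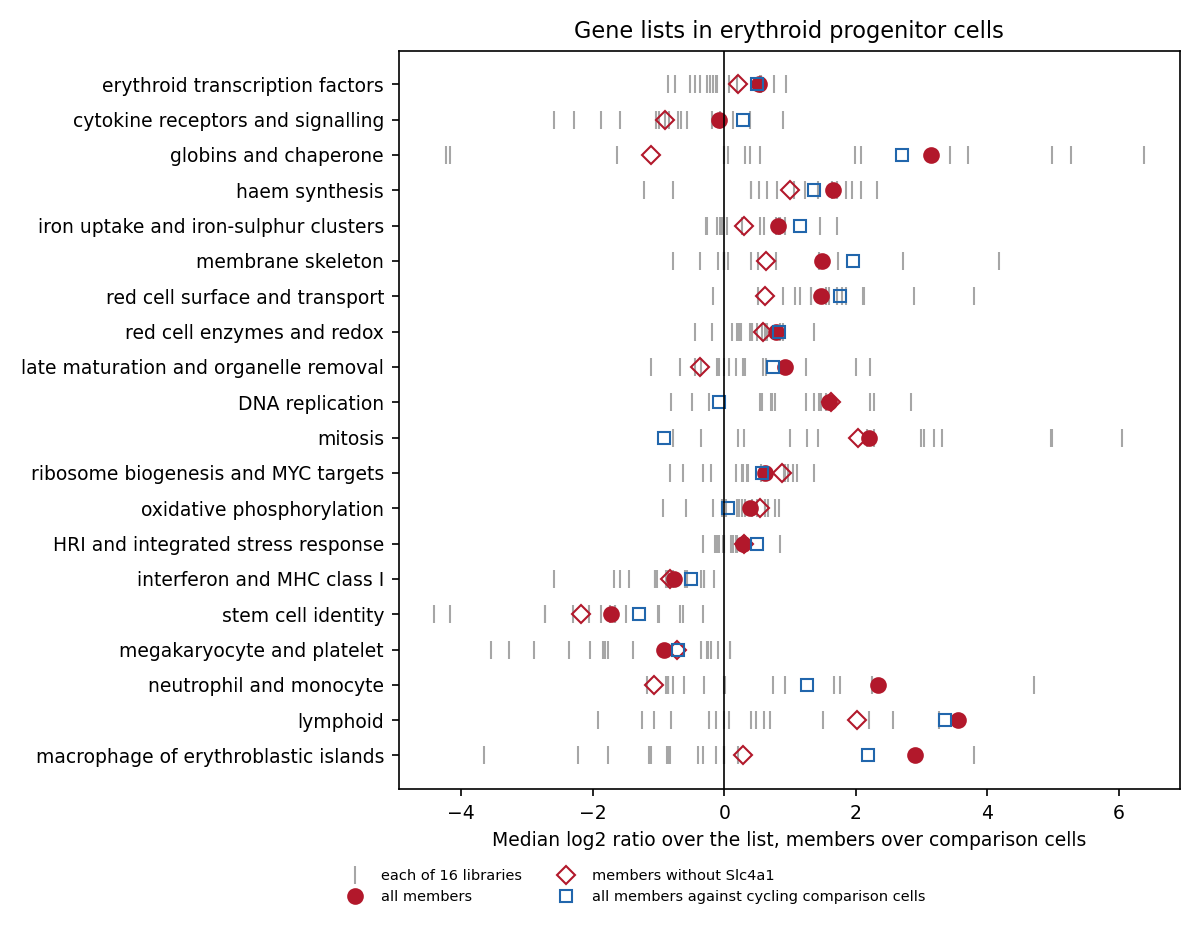
Median log2 ratio of each gene list (x axis) in all erythroid progenitor cells (filled circles) and in those without Slc4a1 (diamonds) against all comparison cells, and in all erythroid progenitor cells against 142 cycling comparison cells (squares); grey ticks are 16 single libraries. Haem synthesis was at 1.66, 0.99 and 1.36, DNA replication at 1.59, 1.62 and -0.08, and the stem cell list at -1.72, -2.18 and -1.30.

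The 15 highest ratios among genes with 1 direction in all 16 libraries, rule genes left out, included membrane, metal and cell cycle genes. They were Mfsd2b, Kel, Ccne1, Lmna, Mt1, Blvrb, Abcb4, Tspan33, Endod1, Optn, Stom, Rrm1, Tnfaip2, Mcm5 and Mad2l1. Mt1, a metallothionein gene, stood at 1103 against 105 CPM (3.39) and at 1406 CPM without the cells with Slc4a1. The nuclear lamina gene Lmna stood at 145 against 9.29 CPM, Abcb4, a phospholipid exporter gene, at 66.9 against 7.36 CPM, and Stom, of the red cell membrane protein stomatin, at 99.6 against 20.9 CPM. Tspan33, a tetraspanin gene of erythroid progenitors, stood at 81.7 against 9.24 CPM. Against cycling comparison cells Mad2l1, a spindle checkpoint gene, was at -0.88, Mcm5 at 0.02 and Rrm1 at 0.04, and the other 12 stayed between 1.73 and 5.99.

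The 15 lowest were Cnrip1, Esam, Hoxa7, B4galt4, Procr, Npdc1, Casp12, Ldhb, Hacd4, Ifitm1, Tspan4, Cd27, Gstm1, Pik3ip1 and Prtn3. Cnrip1, of a cannabinoid receptor binding protein, stood at 7.62 against 84.4 CPM (-3.31), and the homeobox gene Hoxa7 at 8.21 against 81.7 CPM (-3.17). Ldhb, a lactate dehydrogenase subunit gene, stood at 40.6 against 249 CPM, and the glutathione transferase gene Gstm1 at 101 against 516 CPM. All 15 were below 0 against cycling comparison cells as well, between -2.84 and -1.27. Procr belongs to the comparison rule and is listed only as a description.

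Erythroid progenitor cells were last ordered by their globin share, which the rule did not use. The globin-poor set (45 cells in 12 libraries) had 0 to 56.6 CPM of the 4 adult globin genes and the globin-rich set (45 cells in 22 libraries) 1445 to 324760 CPM. Of 7966 genes 1877 were at least 2-fold higher in the globin-rich set (23.6%) and 581 lower (7.29%). Haem synthesis had 12 of 15 genes higher and 0 lower, membrane skeleton genes 10 of 13 and 0, and neutrophil genes 16 of 17 and 0. Tfrc stood at 659 against 39.4 CPM. The globin-rich set held 23 of the 24 cells with Slc4a1 and 20 cells that met the Procr rule, against 4 in the globin-poor set, and its granule sum had a median of 7299 against 22.4 CPM.

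The rule genes themselves differed less between these sets in summed counts. Car1 stood at 1720 CPM in the globin-rich and 1887 CPM in the globin-poor set, Epor at 105 and 114 CPM and Klf1 at 426 and 267 CPM. Over single cells the median of Car1 was 277 CPM in the globin-rich and 1155 CPM in the globin-poor set, and that of Klf1 159 and 130 CPM. In summed counts the order of Car1 was thus the same but the difference far smaller. Gata1 stood at 138 and 259 CPM and Gata2 at 117 and 248 CPM. Library was not held constant. The 16 erythroid progenitor cells of Lib22 had medians of 4.79 CPM of globin and 384678 counts, against 87778 counts in the globin-poor set. Lib22 therefore weighs heavily in the globin-poor sums, and its 16 cells had Gata1 at 296 and Gata2 at 332 CPM. The part of library in the differences between these sets was not tested. Only Ermap, at 335 and 111 CPM, passed 2-fold among the 6 in summed counts. Genes lowest in the globin-rich set included Fcer1a, a mast cell and basophil receptor gene, at 0.288 against 38.0 CPM, Ceacam19, an adhesion gene, at 0.192 against 34.3 CPM, and the G protein gene Gna14 at 1.15 against 35.0 CPM. The 10 highest included the muscle genes Acta1, Myh4, Tnnt3 and Pvalb from the 2 cells named above and Vcam1 and Retnlg, of macrophages and neutrophils. Without these 2 cells 1786 genes were higher, and without TP56 1641.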

How the data were processed

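The matrix deposited by the authors holds whole-number counts for 19224 gene symbols in single cells, not normalized. Read trimming, alignment and counting tools were Trimmomatic 0.36, HISAT2 2.1.0 and HTSeq 0.9.1, with build GRCm38, per the submitters' processing notes. The sources used here do not say if reads or molecules were counted, and amplified counts are not independent molecules, so intervals cover counting error only. The 4271 cells used hold 624386060 counts, with a median of 122013 per kept cell. It was analysed as 1 pooled sample; 17 cell columns of a further library were not used. No doublet caller was run, because the labels' protocols describe single-cell sorting with pulse width and height settings. Counts were summed per group, scaled to CPM and compared as log2(CPM + 1), which understates ratios of low genes; genes at 16 CPM or more in either group were used. The members and the 25 gene lists were chosen with earlier results of these data known. Named genes were the rule genes, the 15 highest and 15 lowest with 1 direction in 16 libraries, up to 4 at each end of a list, 10 at each end of the globin comparison and a fixed set; other list members, Cldn13 and the muscle genes were chosen after their values were seen. Some genes that the rule names are not reported here. Alternatives on the rule, depth, scaling, libraries and comparison cells were fixed first, except the share without the library with the most erythroid progenitor cells. That share was added after the data were seen. So were the alternatives on Slc4a1, marker number, 3 counts per marker, the Procr overlap, the Car1 libraries, TP56 and muscle genes. Positions are from GENCODE M21 (19071 symbols matched). Python 3.11.15, numpy 2.4.6, scipy 1.17.1 and matplotlib 3.10.9 were used, and the ratios were tested on simulated data.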

Additional observations from a re-analysis of the deposited data

How the results depend on the processing

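The share of 3.27% moved with the rule: it was 6.43% with 2 markers, 2.01% with 4, 1.94% at 100 CPM, 8.55% with any count, 2.32% with 3 counts per marker, 2.71% without Lib19 and 1.84% without the 6 libraries with Car1 in most comparison cells. Counts of genes moved with the gene minimum, to 455 higher and 490 lower at 50 CPM and 1773 and 1983 with none, and without the 6 Car1 libraries to 1424 higher and 853 lower, or 62.5% of the calls higher against 48.3%. Without the cells with Slc4a1, and with the 16 CPM minimum applied anew to 7647 genes, 680 were higher and 1373 lower (33.1% of the calls higher). With the cells divided at the median of globin, 289 genes were lower in globin-rich cells. Of 134 named genes with a 2-fold ratio, 116 kept their direction under the 12 alternatives of the ratios fixed first and 99 under all 18. Of the 134, 93 stayed at least 2-fold under each of the 12. Changes of the gene minimum or of the pseudocount cannot change a direction. The named genes also include the rule genes and genes picked for 1 direction in 16 libraries. Ratios took the opposite sign without the cells with Slc4a1 for the list of globins and chaperone (-1.12), the list of neutrophil and monocyte (-1.06), Alas2 (-1.72), Bcl2l1 (-0.37), C1qb (-0.0548), Cd5l (-0.38), Cebpe (-1.13), Hba-a1 (-0.0962), Hba-a2 (-1.20), Hbb-bs (-1.12), Hbb-bt (-1.48), Hbq1b (-0.70), Hdc (-2.02), Hmox1 (-0.68), Mpo (-1.17), Slc25a37 (-0.68), Slc4a1 (-2.64), Spic (-1.87) and Tmcc2 (-2.32). Against cycling comparison cells they did so for the list of DNA replication (-0.0848), the list of mitosis (-0.92), Bub1 (-0.35), Bub1b (-1.62), Ccna2 (-0.20), Cdc20 (-1.65), Cenpf (-1.55), Cish (0.29), Ifit1 (0.43), Mad2l1 (-0.88), Mcm10 (-0.29), Mki67 (-0.40), Socs3 (0.22), Tk1 (-0.55), Trib3 (0.0698), Ube2c (-0.45) and Uhrf1 (-0.0429). Without TP56 they did so for the list of macrophage of erythroblastic islands (-0.40), C1qa (-0.76), C1qb (-1.63), Cd5l (-0.18), Hmox1 (-1.13) and Spic (-0.85). They did so with 5 or 6 markers for Gp1bb (-2.79), Hmox1 (-0.43) and Mpo (-0.25), with at least 4 markers for Gp1bb (-0.46) and Hmox1 (-0.37), and with libraries weighted for Gp1bb (-0.65) and Nkg7 (-0.16). Causes were not tested beyond the cells each alternative leaves out. The alternative without the cells with Slc4a1 left all comparison cells in, including the 445 rich in globin. No paired analysis was possible because no column is tied by name to a numbered sample and no test was made; direction within 16 libraries was counted in its place. The 1 pooled sample, the shallow cells and the uneven libraries limit every value.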
